A study of Mus musculus with 12 samples.

Results

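The comparison of palatal shelves from Pdgfra PI3K/PI3K embryos with those of Pdgfra +/+ embryos rests on 6 of the 12 libraries of the series, 3 for each genotype, chosen by the names of their columns in the deposited tables. All 6 came from mouse embryos on a 129S4 background at stage E13.5. The palatal shelf mesenchyme was collected after its ectoderm had been digested with trypsin, and polyadenylated RNA was sequenced. The design text calls the 3 samples of each genotype biological replicates, and the labels do not say whether each was 1 embryo or a pool. The other 6 libraries of the series are maxillary processes of another allele and stage and are not used here. The wild-type group carried no engineered Pdgfra allele, and the allele in the PI3K group is constitutive, so every Pdgfra-expressing cell of the embryo carried it.

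Pdgfra encodes PDGFRα, a receptor tyrosine kinase that is abundant in cranial neural crest mesenchyme and is needed for the palatal shelves to form and fuse. When a PDGF ligand binds, the receptor phosphorylates its own tyrosines, and a pair of these in the kinase insert bind the regulatory subunits of phosphoinositide 3-kinase (PI3K). In the PI3K allele these tyrosines are replaced by phenylalanine, so that the receptor can no longer engage PI3K directly. PI3K activates the kinase AKT, which restrains FoxO transcription factors and activates mTORC1, and in this lineage AKT is known to phosphorylate the splicing regulator Srsf3.

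The stretch of Pdgfra that encodes these tyrosines is shown because it is what separates the genotypes. It is the GRCm38 reference sequence of the plus strand in exon 16 of transcript Pdgfra-201, at chr5:75182998-75183069. The capitals mark tyrosine codons 731 and 742 of 1089, found by a script as the tyrosine codons of the coding sequence that have a methionine codon in the third codon after them and lie close together. The sequence of the knock-in allele is not used here.
Pdgfra, PI3K-binding tyrosines: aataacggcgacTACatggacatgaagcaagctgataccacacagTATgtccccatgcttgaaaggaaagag

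Library totals ran from 30.5 to 37.4 M estimated counts (M, megacounts), and 16525 genes passed the filter on low counts. Mitochondrial genes took 1.72% to 2.51% of the counts. Pearson correlations of log2 CPM (counts scaled to the library total and TMM factors) across genes were 0.970 to 0.983 within the groups and 0.966 to 0.989 between them, and the closest pair of all was wild-type library 1 with PI3K library 1. Y-linked transcripts were found in 1 library of each group, wild-type library 3 and PI3K library 1. The labels do not tie a replicate number to a litter or a day.

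Pdgfra (ENSMUSG00000029231.15; GRCm38 chromosome 5, 75152292 to 75198215, plus strand) was measured first. Its normalised read count was 503, 469.5 and 501 CPM in the wild-type and 452, 479.6 and 561.5 CPM in the PI3K libraries. The PI3K libraries spread wider, on both sides of the wild-type values, and the groups overlapped. The means were 491 ± 18.6 CPM in the wild-type and 498 ± 57.01 CPM in the PI3K group (SD, n = 3 each), and the fitted difference was 0.02 on the log2 scale, between -0.22 and 0.26 at 95% confidence (adjusted p = 0.9997 by edgeR's quasi-likelihood test with Benjamini-Hochberg adjustment). The sign of this value did not hold when libraries were left out (it was -0.00 when wild-type library 2 and -0.07 when PI3K library 3 was omitted). The difference in the gene total was smaller than the spread of the replicates.

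On the length-scaled scale the same gene separated the genotypes. In TPM, which divide each count by the length of the transcripts it was assigned to and scale every library to the same sum, Pdgfra had 139.8, 130.3 and 144.5 TPM in the wild-type and 186, 200.5 and 243 TPM in the PI3K libraries. The groups did not overlap, while their counts did. Fitted by limma on log2(TPM + 1), the log2 difference was 0.59 at an adjusted p of 0.9998 (Benjamini-Hochberg). The ratio of a gene's estimated count to its TPM is its effective length, the average length of the transcripts to which Salmon assigned its reads. For Pdgfra this corresponded to about 6325, 6415 and 6251 bases in the wild-type and 4291, 4170 and 4206 bases in the PI3K libraries, on a scale set with 513 genes that have 1 annotated transcript of at least 3000 bases. All 3 PI3K libraries lay below all 3 wild-type libraries, and the spread within each group was a small part of the gap. The log2 shift was -0.58 ± 0.01 (SE), with an adjusted p of 0.000941 by limma (Benjamini-Hochberg over 12907 genes), the smallest p of any gene. It was the only call, 0.00775% of the genes tested.

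For scale, the median absolute shift in effective length was 0.02 over all genes, 88.7% of genes shifted by less than 0.1, and 11 genes had a shift at least as large as that of Pdgfra. The annotation holds protein-coding Pdgfra transcripts of 6834, 6549 and 4088 bases (Pdgfra-202, Pdgfra-201 and Pdgfra-205) and 6 shorter transcripts of 442 to 2876 bases, of which 4 are protein-coding. The gene totals do not show which exons or ends the reads came from. The shift was called in every fit that left out 1 library (-0.59 to -0.57), and it was not called with the replicate number as a block, where its size was the same and its adjusted p 0.411. Whether the engineered locus differs from the reference outside the tyrosine codons, for example at its 3′ end, is not given in the sources used here, and the part of such a difference in the shift was not tested. Other annotated gene models lie within the Pdgfra interval, 2 of them on the opposite strand (Gm42802 and Gm42803). Whether the authors' counting used strand is not given in the sources used here.

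**Figure D1:**
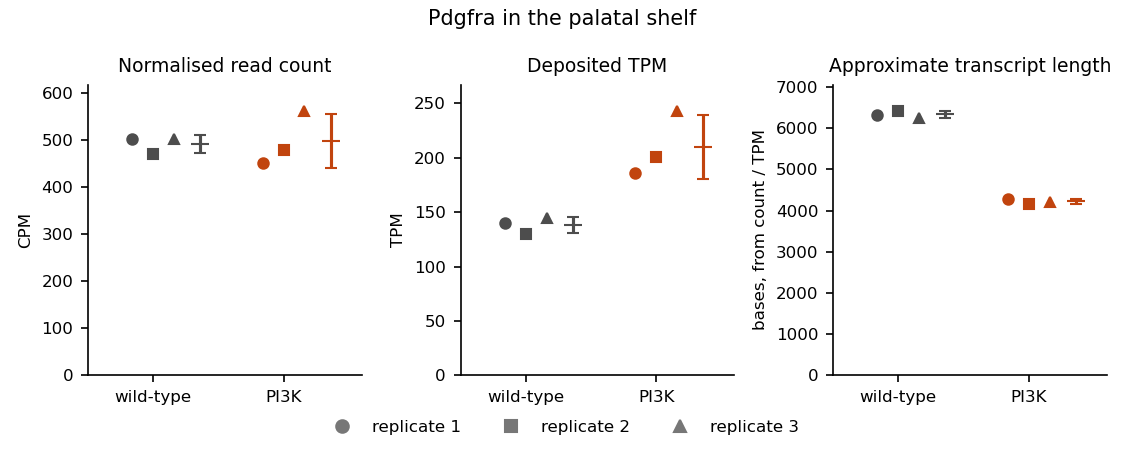
Pdgfra in each of the 6 libraries as CPM, as TPM and as approximate transcript length in bases, with the mean and SD of each group of 3. The counts overlap between the genotypes, whereas the TPM values are higher in all 3 PI3K libraries and the lengths are 6251 to 6415 bases in wild-type and 4170 to 4291 bases in PI3K.

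The other PDGF genes were next compared. Pdgfrb, the sister receptor, had 319, 372 and 351 CPM in the wild-type and 332, 324 and 342.5 CPM in the PI3K libraries. Pdgfa, the ligand made mainly by epithelium, had 46.4, 75.3 and 57.98 CPM in the wild-type and 53.9, 75.2 and 48.6 CPM in the PI3K libraries, and Pdgfc had 80.8, 136 and 87.4 CPM in the wild-type and 90.4, 115 and 140.3 CPM in the PI3K libraries. In all of them the groups overlapped. By mean TPM over the 6 libraries Pdgfra (174) was above Pdgfrb (110.9), followed by Pdgfa (70.9), Pdgfc (60.7), Pdgfb (9.37) and Pdgfd (2.72). Of the 6 ligands and receptors 3 had a higher and 3 a lower mean in the PI3K group, none had an unadjusted p under 0.05, and their median log2 fold change was 0.00 beside -0.01 over all genes tested.

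The components of the pathway that the mutated tyrosines feed showed no difference past the threshold. Of 31 genes for PI3K subunits, AKT and mTOR kinases, phosphatases, adaptors and FoxO factors, 21 had a higher and 10 a lower mean in the PI3K group, with a median of 0.09, and none had an unadjusted p under 0.05. Without PI3K library 2 the counts were 15 and 16 and the median -0.01. Pik3cd, a catalytic subunit best known from leukocytes, had 9.101, 8.996 and 8.23 CPM in the wild-type and 6.97, 8.19 and 7.72 CPM in the PI3K libraries. Every PI3K library lay below every wild-type library, and the log2 fold change was -0.20 ± 0.15 (unadjusted p = 0.213), with ± giving the standard error here and below. Groups without overlap were found in 2 of the 31 genes, both lower in PI3K, beside 6.23% over all genes (3.11% lower). Pik3r2, a regulatory subunit, had 166, 167 and 179 CPM in the wild-type and 171, 111 and 141 CPM in the PI3K libraries, so that 2 of the 3 PI3K libraries were low and 1 was not. Foxo3 had 146, 121 and 145 CPM in the wild-type and 141, 251 and 143 CPM in the PI3K libraries, where PI3K library 2 alone stood above the rest. Akt1 had the highest mean TPM of the list, 296.

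Genes that FoxO factors are known to activate when AKT activity is low were examined as a readout of the pathway. Of 20 tested 12 had a higher and 8 a lower mean in the PI3K group, with a median of 0.04 and none at an unadjusted p under 0.05. Without wild-type library 1 the FoxO target counts were 17 higher and 3 lower, with a median of 0.15. Bcl2l11, which encodes the cell-death protein BIM, was the only gene of these 20 whose groups did not overlap. Over all genes 3.12% were higher without overlap. Bcl2l11 had 29.5, 26.1 and 25.9 CPM in the wild-type and 30.7, 30.4 and 32.6 CPM in the PI3K libraries. Its log2 fold change was 0.20 ± 0.10. Receptor tyrosine kinases also signal through ERK, whose feedback genes and ETS factors serve as its readout. Of those 12 genes 4 had a higher and 8 a lower mean, with a median of -0.14 and none at an unadjusted p under 0.05. The counts became 8 higher and 4 lower, with a median of 0.06, without wild-type library 2.

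Across all genes no difference passed the threshold. Of 16525 genes tested 0 (0.0%) had an adjusted p under 0.05 in edgeR, where the smallest adjusted p was 0.9997 and the smallest unadjusted p 0.00100. The unadjusted p was under 0.05 for 354 genes (2.14%), with the mean higher in the PI3K group for 253 (1.53%) and lower for 101 (0.611%). Fewer genes had a small p than an equal share in each bin would give, with 905 of 16525 genes at p from 0 to 0.1 and 1911 at p from 0.4 to 0.5. Every gene named below therefore has an edgeR adjusted p of 0.9997 or more, and its unadjusted p is given as a description. DESeq2 called 4 genes of 19496 (0.0205%). In 1030 genes (6.23%) the CPM of the groups did not overlap, 516 (3.12%) with the PI3K group higher and 514 (3.11%) with it lower. A single gene tested alone by exact permutation could not have reached an unadjusted p below 0.1 with 3 libraries against 3.

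The size of change that the 95% intervals covered depended on the level of the gene. The absolute log2 fold change was under 0.25 in 77.1% of genes, under 0.5 in 91.5% and under 1 in 98.0%, with a median of 0.11. The median half-width of the 95% interval was 0.39. For 12510 genes (75.7%) the interval lay within a log2 fold change of 1 on either side of 0. That share was 8.76% of 2169 genes below 1 CPM, 60.4% of 4083 genes from 1 to 10 CPM, 95.3% of 7791 genes from 10 to 100 CPM and 97.8% of 2482 genes above that. Above 100 CPM, 89.1% of genes had an interval within 1.5-fold. A change of 2-fold was thus outside the interval of most genes above 10 CPM and inside it for most genes below 1 CPM. The median SD of log2 CPM among replicates was 0.16 in the wild-type and 0.21 in the PI3K group.

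**Figure D2:**
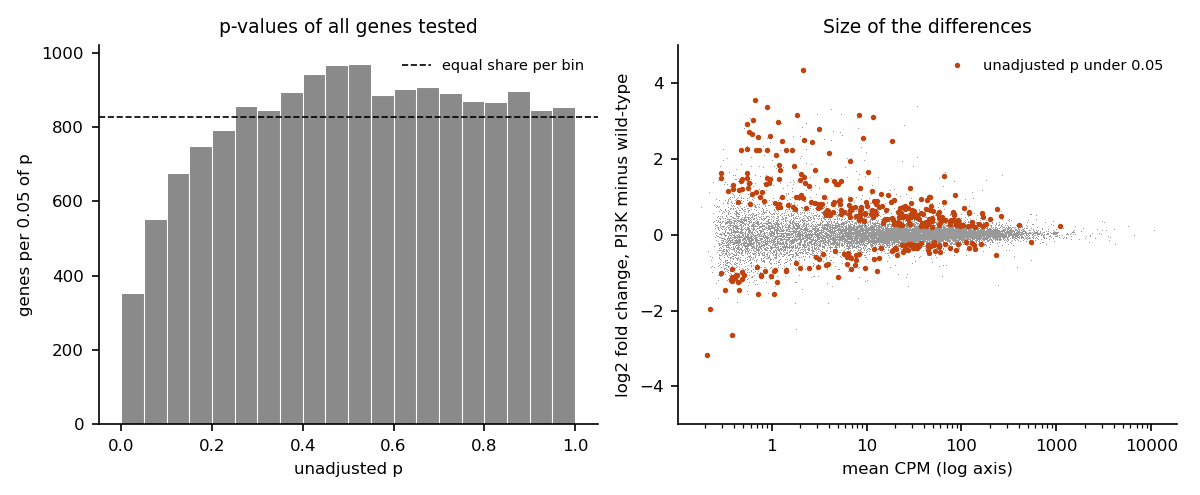
Left, number of genes in each bin of the unadjusted edgeR p, with a dashed line at the equal share. Right, log2 fold change (PI3K minus wild-type) of each of the 16525 genes against its mean CPM on a log axis. The lowest bin of p, below 0.05, holds 354 genes, and log2 fold changes narrow as the mean CPM increases.

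Among named genes at a mean of 5 CPM or more, the smallest unadjusted p values of those with a higher mean in PI3K belonged to Glipr2, Rragd and Barx2. Glipr2 (chromosome 4, 43957401 to 43979118), a membrane-associated protein of the Golgi, had 26.7, 22.2 and 25.7 CPM in the wild-type and 34.1, 41.03 and 40.4 CPM in the PI3K libraries. Rragd (chromosome 4, 32983037 to 33022180), a Rag GTPase that recruits mTORC1 to lysosomes when amino acids are present, had 8.28, 10.2 and 6.82 CPM in the wild-type and 15.4, 16.8 and 15.2 CPM in the PI3K libraries. In both the groups were well apart, with log2 fold changes of 0.63 ± 0.12 and 0.91 ± 0.17 (unadjusted p = 0.00109). Barx2 (chromosome 9, 31846044 to 31913462), a homeobox factor of oral epithelium, muscle and cartilage, had 3.21, 2.61 and 2.703 CPM in the wild-type and 7.66, 8.86 and 4.996 CPM in the PI3K libraries, again without overlap, and a log2 fold change of 1.33 ± 0.26.

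Rragd, Barx2, Foxp2 and Aldh1a2 were the 4 genes called by DESeq2, with adjusted p values of 0.0191 for Rragd, Barx2 and Foxp2 and 0.0199 for Aldh1a2 (DESeq2 Wald test, Benjamini-Hochberg). The same genes had edgeR adjusted p values of 0.9997. In counts simulated without any change between the groups, DESeq2 called 20 genes at an adjusted p under 0.05 and edgeR called 1. These simulated counts covered 16525 genes, whereas DESeq2 tested 19496 genes in the real counts. The simulation can thus not decide whether the 4 calls in the real counts are false. Foxp2 (chromosome 6, 14901349 to 15441977), a forkhead repressor, had 55, 21.3 and 23.8 CPM in the wild-type and 73.8, 93.9 and 128 CPM in the PI3K libraries. The groups did not overlap, wild-type library 1 lay nearest to the PI3K values, and the log2 fold change was 1.56 ± 0.39 (unadjusted p = 0.00457). Aldh1a2 (chromosome 9, 71215789 to 71296243), the enzyme that makes retinoic acid in mesenchyme, had 57.8, 58.7 and 52.7 CPM in the wild-type and 75.8, 147 and 126.5 CPM in the PI3K libraries. All 3 PI3K libraries were above the wild-type range, PI3K library 1 by the least, and the log2 fold change was 1.05 ± 0.23 (unadjusted p = 0.00215). The rest of the 10 with the smallest p were Ednrb (0.71), the endothelin receptor of neural crest derivatives, Pnmal2 (0.55), Tmtc1 (0.91), Sema3g (0.60), Itih5 (0.58) and Tceal6 (0.68), with log2 fold changes in parentheses. Tceal6 has close paralogs, so that its count is uncertain.

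Among genes with a lower mean in PI3K the smallest unadjusted p belonged to Prss12 (chromosome 3, 123446913 to 123506597), a secreted serine protease. It had 96.2, 104 and 96.97 CPM in the wild-type and 70.7, 79.6 and 75.2 CPM in the PI3K libraries, without overlap, and a log2 fold change of -0.40 ± 0.08 (unadjusted p = 0.00171). Slc5a7, the choline transporter of cholinergic neurons, had 11.4, 19.6 and 20.4 CPM in the wild-type and 9.71, 7.52 and 9.305 CPM in the PI3K libraries and a log2 fold change of -0.96. Lum, a small proteoglycan that binds collagen fibrils, had 251, 280.1 and 286 CPM in the wild-type and 234, 182 and 148 CPM in the PI3K libraries, with all PI3K libraries below the wild-type range. Lrp8, a receptor for reelin and apolipoprotein E, had 19.5, 21.4 and 22.4 CPM in the wild-type and 14.8, 14.8 and 17.6 CPM in the PI3K libraries and a log2 fold change of -0.42. Fdps was also among these 10 and belongs to the sterol genes described next. Others were Angptl1 (-0.30), Ndp (-0.78), Il4ra (-0.53) and Wdr3 (-0.28).

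Genes of sterol and fatty acid metabolism, which SREBP factors activate and which AKT and mTORC1 are known to promote, had lower means in the PI3K group. Of 18 tested 17 had a lower mean and 1 a higher mean, beside 52.0% lower over all genes, and the median log2 fold change was -0.26 beside -0.01. All 14 enzymes were among the lower ones. Of the 18 genes 7 were lower at an unadjusted p under 0.05 (among them Fdps, Idi1, Msmo1, Sqle and Lss), beside 0.611% over all genes, and none passed the adjusted threshold. These genes are regulated together and do not count as independent.

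Fdps, which makes farnesyl diphosphate, had 86.3, 79.9 and 87.8 CPM in the wild-type and 68.9, 72.8 and 58.5 CPM in the PI3K libraries. Msmo1, a sterol methyl oxidase, had 36.6, 39.7 and 40.8 CPM in the wild-type and 35.1, 31.6 and 28.02 CPM in the PI3K libraries. Neither gene overlapped between the groups, and their log2 fold changes were -0.34 ± 0.10 (unadjusted p = 0.0124) and -0.31 ± 0.11 (unadjusted p = 0.0262). Idi1, the isomerase that supplies isoprenoid units, had 42.3, 54.7 and 56.2 CPM in the wild-type and 43.6, 37.3 and 35.5 CPM in the PI3K libraries, where wild-type library 1 lay among the PI3K values. Hmgcs1, the synthase at the entry of the pathway, had 204, 267 and 297 CPM in the wild-type and 210.4, 235.5 and 198 CPM in the PI3K libraries, with wild-type library 1 again among the PI3K values. At an unadjusted p under 0.05, the log2 fold change was also -0.40 for Idi1, -0.35 for Sqle and -0.31 for Lss. Insig1, the sterol-responsive retention protein of the SREBP complex, had -0.35, and the fatty acid synthase Fasn had -0.19.

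Wild-type library 1 did not share the higher level of the other wild-type libraries. Summed over the 18 genes the libraries held 2250, 2677 and 2728 CPM in the wild-type and 2260, 2279 and 2179 CPM in the PI3K group. The median stayed below 0 in each of the 6 fits that left out 1 library (-0.35 to -0.19). The number of the genes at an unadjusted p under 0.05 moved with the library left out, from 11 without wild-type library 1 to 2 without wild-type library 2, 1 without wild-type library 3, 4 without PI3K library 2 and 3 without PI3K library 3.

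A classical sterol response element (TCACNCCAC, on either strand) was searched in the 250 bases before the annotated start, with promoters from RefSeq (GRCm38.p6). It was found in 1 of the 12 sterol genes with a promoter in that table, beside 1.23% of all 27025 symbols. It is printed for Hmgcs1, at chr13:119690189-119690248 on the plus strand, with the element in capitals 137 bases before the start.
Hmgcs1: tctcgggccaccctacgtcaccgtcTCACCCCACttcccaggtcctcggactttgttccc

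Genes activated by ATF4, which mTORC1 also promotes and which supply serine, one-carbon units and amino acids, did not share a direction. Of 15 tested 8 had a higher and 7 a lower mean, with a median of 0.02, and this median was -0.19 when genes were required to pass 1 CPM in at least 3 libraries. Without PI3K library 2 the counts were 2 higher and 13 lower. Mthfd2, a mitochondrial folate enzyme, had 28.97, 29.6 and 26.5 CPM in the wild-type and 23.1, 22.6 and 24.8 CPM in the PI3K libraries, and Phgdh, the first enzyme of serine synthesis, had 147, 133 and 135 CPM in the wild-type and 130, 112 and 113 CPM in the PI3K libraries. Both were lower without overlap, with log2 fold changes of -0.27 ± 0.10 (unadjusted p = 0.0277) and -0.23 ± 0.09 (unadjusted p = 0.0393). They were the 2 lower genes of the list at an unadjusted p under 0.05, beside 0.611% over all genes. That count was 0 to 3 when 1 library was left out. Psat1 and Psph, which complete serine synthesis, were the other genes of the list without overlap, and Psat1 had a log2 fold change of -0.23. Over all genes 3.11% were lower without overlap. In CPM the 3 enzymes that make serine from a glycolytic intermediate were thus lower in each PI3K library than in each wild-type library. The difference was less than 0.25 on the log2 scale in Phgdh and Psat1. In TPM Psat1 kept this separation, whereas Phgdh and Psph overlapped. Psph had 8.10, 8.55 and 7.83 TPM in the wild-type and 9.09, 5.04 and 7.11 TPM in the PI3K libraries. They were singled out after their values had been seen.

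**Figure D3:**
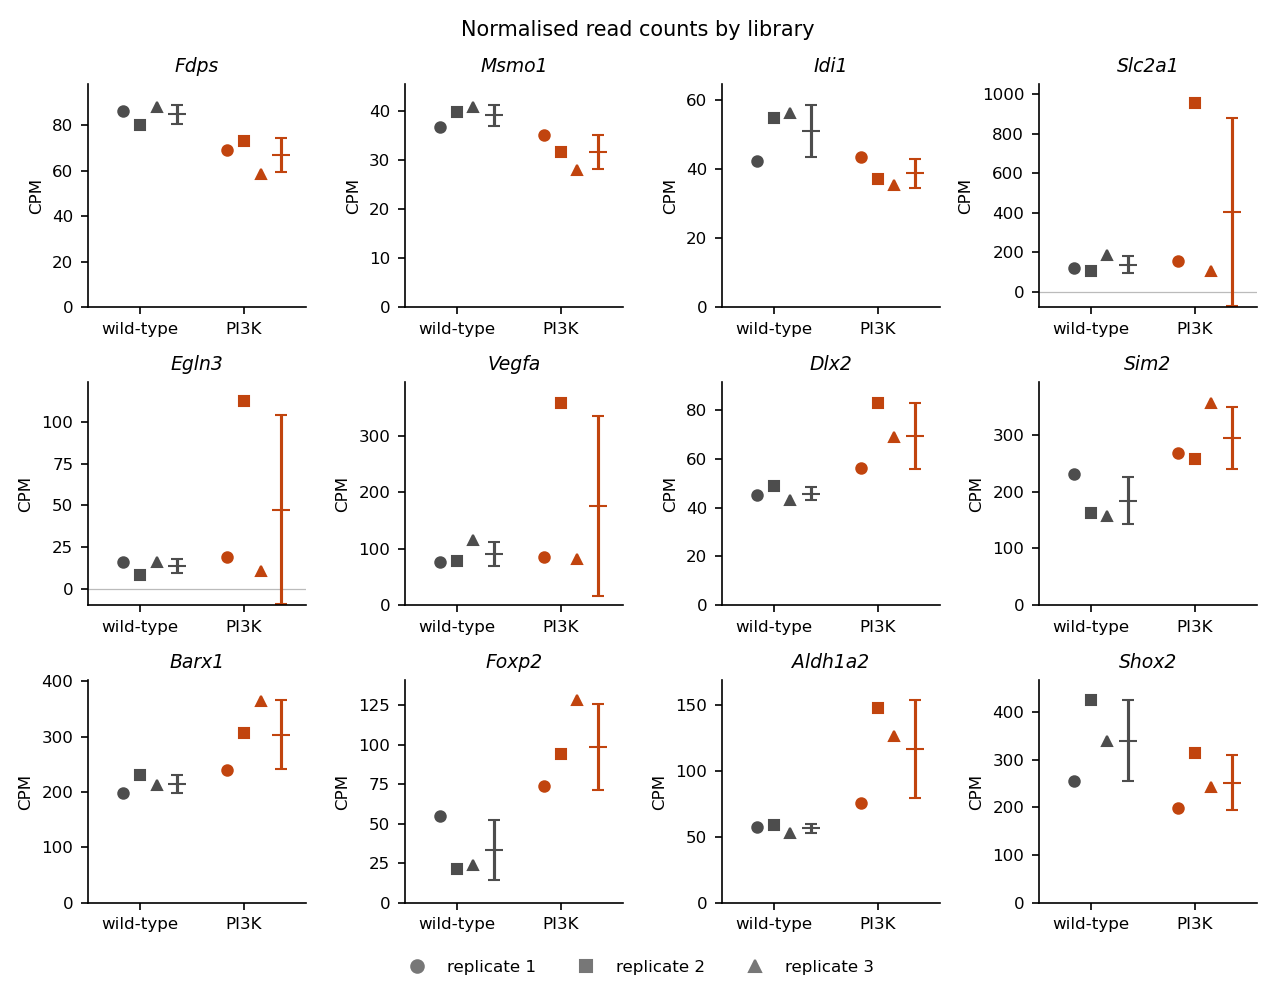
CPM of 12 genes in each of the 6 libraries, with the mean and SD of each group. Fdps and Msmo1 are lower in every PI3K library, Slc2a1, Egln3 and Vegfa stand apart in PI3K library 2 alone (952.9 CPM for Slc2a1), and Dlx2, Sim2, Barx1, Foxp2 and Aldh1a2 are higher in every PI3K library.

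Glycolysis and hypoxia genes, which HIF factors activate and which PI3K signalling can also raise, had higher means in the PI3K group, and 1 library stood far above the rest. All 21 had a higher mean, with a median of 0.34 and none at an unadjusted p under 0.05. Without PI3K library 2 the counts were 6 higher and 15 lower and the median was -0.15. Summed over the list the libraries held 5775, 5378 and 6652 CPM in the wild-type and 6284, 11490 and 4845 CPM in the PI3K group. PI3K library 2 stood above all others and PI3K library 3 below them.

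Slc2a1, the glucose transporter GLUT1, had 118, 106 and 186 CPM in the wild-type and 154, 953 and 105 CPM in the PI3K libraries. Its log2 fold change was 1.56 ± 0.79 (unadjusted p = 0.0874) with all libraries and -0.08 without PI3K library 2. Egln3, an oxygen-sensing prolyl hydroxylase induced by HIF, had 16.1, 8.602 and 16.3 CPM in the wild-type and 19.3, 112 and 10.8 CPM in the PI3K libraries, and Vegfa, the endothelial growth factor, had 77.03, 78.1 and 116 CPM in the wild-type and 85.3, 359 and 81.6 CPM in the PI3K libraries. Bnip3, a mitophagy receptor, had 38.6, 21.7 and 52.2 CPM in the wild-type and 40.4, 205 and 23.7 CPM in the PI3K libraries. In each gene 5 libraries lay in a common range and PI3K library 2 lay several fold above it. Gapdh differed less, with 1349, 1576 and 1456 CPM in the wild-type and 1494, 2120 and 1445 CPM in the PI3K libraries, and Car9, a further hypoxia gene, did not stand out in PI3K library 2 (0.3601, 0.562 and 0.558 CPM in the wild-type and 0.652, 0.512 and 0.476 CPM in the PI3K libraries).

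The core of the hypoxia response element (ACGTG, on either strand) was present before the start of 13 of these 21 genes, beside 18.5% of all symbols. It is shown in a pair of those that stood apart in PI3K library 2, Egln3 at chr12:54204065-54204124 and Bnip3 at chr7:138909579-138909638, both on the minus strand. The capitals mark the element, which in Bnip3 is the palindrome CACGTG and so reads as the core on both strands. It begins 229 bases before the start in Egln3 and 107 in Bnip3.
Egln3: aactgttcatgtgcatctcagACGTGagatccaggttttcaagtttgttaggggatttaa
Bnip3: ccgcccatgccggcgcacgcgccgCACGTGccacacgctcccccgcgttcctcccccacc

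Immediate early genes, which are induced within minutes by growth factors and by handling, followed the same library in part. Of 18 tested 14 had a higher and 4 a lower mean, with a median of 0.36, and without PI3K library 2 the counts were 9 and 9 and the median 0.04. Ier3 had 3.96, 3.37 and 4.26 CPM in the wild-type and 4.07, 38.1 and 2.91 CPM in the PI3K libraries, and Ccn1 had 43.2, 18.9 and 30.7 CPM in the wild-type and 33.7, 199 and 24.9 CPM in the PI3K libraries. Both were far higher in PI3K library 2 than in the 5 other libraries. Egr1, by contrast, had 56.7, 13.2 and 50.5 CPM in the wild-type and 76.6, 14.04 and 14.3 CPM in the PI3K libraries and was high in 3 libraries that did not include it. None of the 18 genes had an unadjusted p under 0.05.

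Transcription factors that pattern the palatal mesenchyme had higher means for the most part. Of 32 tested 20 had a higher and 12 a lower mean in the PI3K group, with a median of 0.11, and 5 were higher at an unadjusted p under 0.05, beside 1.53% over all genes. None passed the adjusted threshold. Without PI3K library 2 the counts were 15 and 17 and the median -0.03. The 5 at an unadjusted p under 0.05 became 9 without PI3K library 1 and 3 without wild-type library 3 or PI3K library 3. Of the list's 33 members 11 also belong to other lists used here.

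Dlx2, a homeobox factor of arch mesenchyme, had 45.3, 48.7 and 43.3 CPM in the wild-type and 56.4, 83.2 and 68.9 CPM in the PI3K libraries. Sim2, a basic helix-loop-helix factor of palatal mesenchyme, had 231, 163 and 157 CPM in the wild-type and 269, 258 and 357 CPM in the PI3K libraries. Barx1, a marker of posterior palate and molar mesenchyme, had 198, 231 and 213 CPM in the wild-type and 239, 307 and 364 CPM in the PI3K libraries. In all of these every PI3K library was above every wild-type library, and the log2 fold changes were 0.60 ± 0.15 (unadjusted p = 0.0041), 0.68 ± 0.19 (unadjusted p = 0.00799) and 0.50 ± 0.15 (unadjusted p = 0.0132). Hic1, a zinc-finger repressor of mesenchyme, had 30.3, 7 and 14.5 CPM in the wild-type and 38.6, 35.3 and 47.95 CPM in the PI3K libraries, also without overlap but with wild-type library 1 close to the PI3K values. Hand2 was low throughout, with 1.24, 0.197 and 0.294 CPM in the wild-type and 2.77, 0.512 and 4.84 CPM in the PI3K libraries, and overlapped.

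Factors of the anterior and posterior palate were then compared within the same list. All 5 anterior factors had a lower mean, beside 52.0% over all genes, with a median of -0.24. Of 4 posterior factors 3 had a higher mean, beside 48.0% over all genes, with a median of 0.20. These are few genes, and their counts were not repeated without single libraries. A difference in position between the samples was not tested. Shox2, the anterior homeobox gene, had 255, 425 and 340.1 CPM in the wild-type and 199, 313 and 243 CPM in the PI3K libraries, where both groups spread widely and overlapped. Its log2 fold change was -0.43 ± 0.22 (unadjusted p = 0.09095). Alx1 had 44.5, 49.98 and 45.9 CPM in the wild-type and 34.6, 45.6 and 31.9 CPM in the PI3K libraries, with PI3K library 2 inside the wild-type range, and a log2 fold change of -0.33. Of the 18 factors of general mesenchyme 15 had a higher mean, with a median of 0.19.

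Signalling pathways that act between palatal epithelium and mesenchyme were compared by the roles of their members. Of 29 BMP and TGF-β pathway genes 22 had a higher and 7 a lower mean, with a median of 0.10, and 3 were higher at an unadjusted p under 0.05, beside 1.53% over all genes. That number was 6 without wild-type library 1, 5 without PI3K library 3 and 2 to 4 without any other library. Tgfb2, a ligand, had 83.4, 55.5 and 64.1 CPM in the wild-type and 92.2, 105 and 98.8 CPM in the PI3K libraries, and the co-receptor Tgfbr3 had 50.3, 51.7 and 53.8 CPM in the wild-type and 57.2, 95.3 and 61.4 CPM in the PI3K libraries. The BMP antagonist Chrd had 10.7, 9.39 and 9.61 CPM in the wild-type and 12.97, 14.7 and 13.6 CPM in the PI3K libraries. All of these were without overlap, with log2 fold changes of 0.54 ± 0.15 (unadjusted p = 0.00841), 0.46 ± 0.19 (unadjusted p = 0.0466) and 0.48 ± 0.13 (unadjusted p = 0.00742). The ligands, receptors, antagonists and targets of the list had similar medians, from 0.07 to 0.13.

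Wnt pathway genes had no common direction. Of 20 tested 7 had a higher and 13 a lower mean, with a median of -0.04. The counts turned to 12 and 8 (median 0.10) without wild-type library 1, 13 and 7 (0.02) without wild-type library 3 and 14 and 6 (0.11) without PI3K library 3. Wnt5a, the non-canonical ligand of palatal mesenchyme, had 156, 177 and 184 CPM in the wild-type and 149, 149 and 137 CPM in the PI3K libraries. It was lower in every PI3K library, with a log2 fold change of -0.25 ± 0.09 (unadjusted p = 0.0277). Wnt11 had 31.3, 19.2 and 20.4 CPM in the wild-type and 31.3, 49.4 and 30.2 CPM in the PI3K libraries, in which wild-type library 1 lay inside the PI3K range, and a log2 fold change of 0.65 ± 0.26 (unadjusted p = 0.0386). Among targets and feedback genes of canonical Wnt signalling 9 of 10 had a lower mean, with a median of only -0.05. Axin2, their usual readout, had 88, 98.1 and 115 CPM in the wild-type and 91.7, 112 and 92.8 CPM in the PI3K libraries and overlapped.

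All 5 FGF ligands tested had a higher mean, and the 9 FGF pathway genes together had a median of 0.09 with 6 higher and 3 lower. Fgf18 had 9.23, 5.31 and 5.96 CPM in the wild-type and 9.81, 9.34 and 9.89 CPM in the PI3K libraries and a log2 fold change of 0.50 ± 0.23, and wild-type library 1 was close to the lowest PI3K value. Of 12 Hedgehog pathway genes 8 had a higher and 4 a lower mean, with a median of 0.05, and the counts were 5 and 7 without wild-type library 1 or PI3K library 2. The co-receptor Boc had 104, 83.4 and 98.3 CPM in the wild-type and 109, 196.5 and 109 CPM in the PI3K libraries, where PI3K library 2 was high. Of 16 ephrins and Eph receptors 9 had a higher and 7 a lower mean, with a median of 0.05. Efnb3, a ligand, had 111, 110 and 104 CPM in the wild-type and 114, 128 and 141 CPM in the PI3K libraries, without overlap, and a log2 fold change of 0.24 ± 0.10 (unadjusted p = 0.0422). No FGF or Hedgehog gene had an unadjusted p under 0.05.

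**Figure D4:**
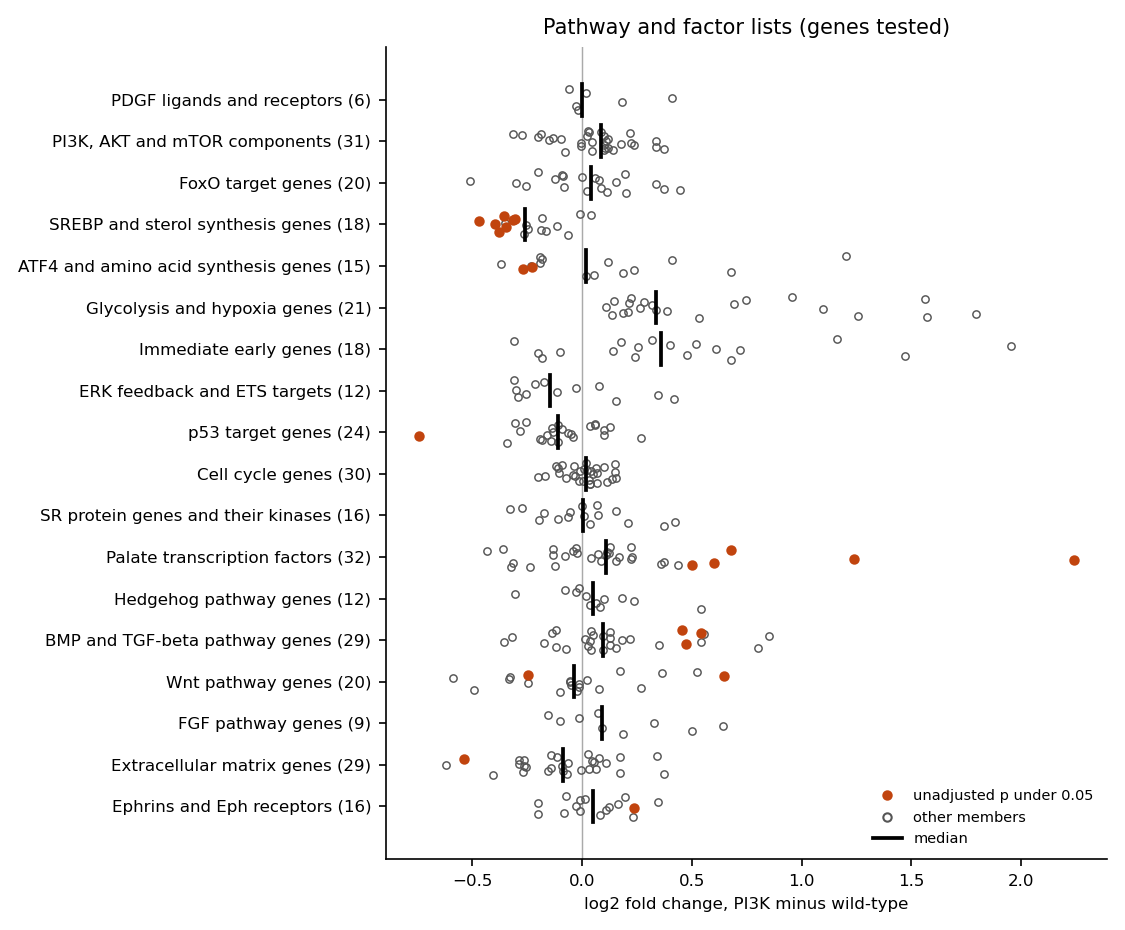
Log2 fold change (PI3K minus wild-type) of each tested member of the 18 pathway lists, with filled points at an unadjusted p under 0.05 and a black bar at the list's median. The sterol genes have 17 of 18 members below 0, and the glycolysis and hypoxia genes have 21 of 21 above 0.

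Genes of the cell cycle, of p53 and of the matrix had medians from -0.11 to 0.02. Of 30 cell cycle genes 18 had a higher and 12 a lower mean, with a median of 0.02, and Ccnd3, the G1 cyclin with the smallest p among them, had 237, 226 and 244 CPM in the wild-type and 271, 265.5 and 250 CPM in the PI3K libraries, without overlap (0.15 on the log2 scale). The counts of the list had no stable direction, with 9 higher and 21 lower without wild-type library 1 and 25 higher and 5 lower without wild-type library 2. Mki67, a marker of cycling cells, had 473, 660.2 and 521.5 CPM in the wild-type and 485, 684 and 606 CPM in the PI3K libraries. Of 24 p53 target genes 7 had a higher and 17 a lower mean, with a median of -0.11. The p53 median stayed below 0 in each fit that left out 1 library (-0.14 to -0.07), with 14 to 20 genes lower. Eda2r, a death receptor of the tumour necrosis factor family, had 2.72, 1.72 and 2.41 CPM in the wild-type and 1.47, 1.34 and 1.27 CPM in the PI3K libraries, with a log2 fold change of -0.74. It was the only one of the 24 at an unadjusted p under 0.05, beside 0.611% lower over all genes. Of 29 extracellular matrix genes 11 had a higher and 18 a lower mean, with a median of -0.09. Without wild-type library 1 the matrix counts turned to 18 and 11 (median 0.10), and without wild-type library 2 they were 7 and 22 (median -0.25). Col1a1, the main fibrillar collagen gene of bone and mesenchyme, had 7375, 2381 and 3667 CPM in the wild-type and 5546, 3224 and 2388 CPM in the PI3K libraries, and its highest values were in library 1 of each group. Proteoglycan and hyaluronan genes had the lowest median of the matrix roles, -0.29. Lum was the only one of the 29 matrix genes at an unadjusted p under 0.05, beside 0.611% lower over all genes.

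The SR protein genes and their kinases were examined because AKT phosphorylates Srsf3. Of 16 tested 9 had a higher and 7 a lower mean, with a median of 0.00 and none at an unadjusted p under 0.05, and without PI3K library 2 the counts were 2 and 14 with a median of -0.04. Srsf3 (chromosome 17, 29032628 to 29043373) had 339, 381 and 355 CPM in the wild-type and 337, 332 and 367 CPM in the PI3K libraries, a log2 fold change of -0.05 with a 95% interval from -0.25 to 0.15. The groups overlapped, and the sign did not hold with limma on log2(TPM + 1). The effective lengths of the 16 genes shifted by -0.07 to 0.05, none at an unadjusted p under 0.05.

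A change in transcript choice would show in effective length where the transcripts differ in length. Of 12907 genes 523 (4.05%) had an unadjusted p under 0.05, 283 of them longer and 240 shorter in PI3K. Among protein-coding genes with a longer mean in PI3K the smallest p belonged to Lef1, a factor of canonical Wnt signalling. It lay at about 2426, 2661 and 2596 bases in the wild-type and 3292, 3324 and 3385 bases in the PI3K libraries. The groups did not overlap, and the adjusted p was 0.501 (limma, Benjamini-Hochberg). Its count did not share the separation (42.3, 41.8 and 43.9 CPM in the wild-type and 51.5, 45.8 and 29.4 CPM in the PI3K libraries). Slc25a16 (0.24), Nup54 (0.17), Cwc22 (0.11) and Frrs1 (0.13) also had a longer mean on the log2 scale. Nacad had a shorter mean, at about 4339, 4921 and 4924 bases against 2217, 2237 and 2692, as had Zwilch (-0.27), Zfp667 (-0.21) and Plekha7 (-0.12). None of these passed the adjusted threshold. Cwc22 encodes a spliceosome component and Nup54 a nuclear pore protein.

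The cell types in the tissue were read from marker genes. In such bulk samples fewer cells of a type and less RNA per cell cannot be told apart. Markers of palatal shelf mesenchyme were abundant and overlapped, with summed levels of 6969, 6703 and 7104 CPM in the wild-type and 6903, 6808 and 6075 CPM in the PI3K libraries. Of these 10 genes 6 had a higher and 4 a lower mean, with a median of 0.03, and without PI3K library 2 the counts were 4 and 6 with a median of -0.09. Ectoderm had been digested, yet its markers were detected in all 6 libraries, including the epithelial genes Epcam and Cdh1. Krt14, the basal keratin, had 177.7, 242 and 252.6 TPM in the wild-type and 236.4, 214.6 and 93.3 TPM in the PI3K libraries. PI3K library 3 had the least of it. Summed over 19 ectoderm markers the libraries held 1179, 1468 and 1557 CPM in the wild-type and 1518, 1780 and 777.5 CPM in the PI3K group, and the median log2 fold change was -0.03 with 5 higher and 14 lower. Without PI3K library 3 the ectoderm counts were 18 higher and 1 lower (median 0.20), and without PI3K library 2 they were 1 and 18 (median -0.27).

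Skeletal muscle markers had the largest median difference of the 12 marker lists. All 16 tested had a higher mean in the PI3K group, beside 48.0% over all genes, with a median of 2.63, and 6 were higher at an unadjusted p under 0.05, beside 1.53% over all genes. None of the 16 was free of overlap. Summed they were 75.4, 5.43 and 6.64 CPM in the wild-type and 363, 35.9 and 175.6 CPM in the PI3K libraries, so that wild-type library 1 lay above PI3K library 2. Mylpf, a light chain of fast myosin, had 6.32, 1.04 and 0.676 CPM in the wild-type and 31.6, 3.01 and 12.03 CPM in the PI3K libraries, and Ttn, the giant sarcomere protein, had 4.81, 0.113 and 0.176 CPM in the wild-type and 26.6, 3.102 and 15.4 CPM in the PI3K libraries. Myod1, the myogenic master factor, had 4.58, 0.113 and 0 CPM in the wild-type and 14.4, 2.94 and 11 CPM in the PI3K libraries. Muscle transcripts were thus few in all libraries and nearly absent from wild-type libraries 2 and 3. Without wild-type library 2, wild-type library 3 or PI3K library 1 in turn, 0 of the genes had an unadjusted p under 0.05, and there were 15 without wild-type library 1, 10 without PI3K library 2 and 3 without PI3K library 3. The median ranged from 1.72 to 5.53.

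An E-box of the kind bound by myogenic factors (CAGCTG, its own reverse complement) was present before the start of 6 of 14 muscle markers with a RefSeq promoter, beside 14.7% of all symbols. It is shown for Mylpf, at chr7:127211532-127211591, and Des, at chr1:75360231-75360290, both on the plus strand, with the E-box in capitals 51 and 36 bases before the start.
Mylpf: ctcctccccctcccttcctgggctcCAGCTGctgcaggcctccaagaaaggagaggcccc
Des: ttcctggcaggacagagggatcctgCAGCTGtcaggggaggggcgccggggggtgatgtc

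Bone and cartilage markers divided the libraries across the genotypes. Summed bone markers were 9163, 2527 and 4059 CPM in the wild-type and 6497, 3552 and 2550 CPM in the PI3K libraries. Ibsp, bone sialoprotein, had 1001, 0.0281 and 46.7 CPM in the wild-type and 406, 0.864 and 0.555 CPM in the PI3K libraries, so that library 1 of each group held nearly all of it. Of 9 bone markers tested 1 had a higher and 8 a lower mean, with a median of -0.82, and without wild-type library 1 all 9 had a higher mean, with a median of 0.95. For 13 cartilage markers the counts were 7 and 6 and the median 0.14. They became 12 and 1 with a median of 1.20 without wild-type library 1, and 6 and 7 with a median of -0.39 without wild-type library 2. Sox6, a factor of chondrocytes, had 114, 48.8 and 77.5 CPM in the wild-type and 109.9, 160.4 and 122.5 CPM in the PI3K libraries. It was the only one of the 13 cartilage markers at an unadjusted p under 0.05, beside 1.53% higher over all genes.

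Endothelial markers had slightly higher means. Of 14 endothelial markers 11 had a higher and 3 a lower mean, with a median of 0.14, and their sums were 651.5, 581 and 648 CPM in the wild-type and 666, 789.7 and 698 CPM in the PI3K libraries. Cdh5, Egfl7 and Erg were higher without overlap, beside 3.12% over all genes, and no endothelial marker had an unadjusted p under 0.05. Of 9 mural cell markers 7 had a higher mean, with a median of 0.12, which became -0.04 with 4 higher and 5 lower without PI3K library 2 and 0.00 with 5 and 4 without PI3K library 1. Acta2, smooth muscle actin, had 40.2, 18.2 and 33.3 CPM in the wild-type and 73.01, 68.9 and 41.7 CPM in the PI3K libraries, higher in every PI3K library, with a log2 fold change of 1.00 ± 0.32 (unadjusted p = 0.01598). Acta2 is also made by early skeletal muscle, whose markers are given above.

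Red blood cell markers had lower means. All 11 tested had a lower mean, with a median of -0.58, and summed they were 2789, 2616 and 1190 CPM in the wild-type and 1216, 1241 and 1845 CPM in the PI3K libraries. Wild-type library 3 was the lowest of all, below every PI3K library. None had an unadjusted p under 0.05 with all libraries, and without wild-type library 3 there were 5 with a median of -0.98. Alas2, the erythroid heme enzyme, had 18.3, 14.3 and 4.64 CPM in the wild-type and 8.12, 6.46 and 9.01 CPM in the PI3K libraries. The globin pairs Hba-a1 and Hba-a2, and Hbb-bs and Hbb-bt, are near-identical copies, so that their single values are uncertain. Of 14 macrophage markers 2 had a higher and 12 a lower mean, with a median of -0.17 and sums of 155, 59.99 and 87.6 CPM against 119, 65.8 and 77.0 CPM. Without wild-type library 1 the macrophage counts turned to 11 and 3 (median 0.26), and without PI3K library 2 they were 8 and 6 (median 0.01). No macrophage marker had an unadjusted p under 0.05.

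Neural crest glia and melanoblast markers had higher means for the most part. Of 10 tested 7 were higher and 3 lower, with a median of 0.36, and 3 were higher at an unadjusted p under 0.05, beside 1.53% over all genes. That number was 1 without wild-type library 1, wild-type library 3 or PI3K library 3, and 2 without wild-type library 2. Erbb3, the neuregulin receptor of Schwann cell precursors, had 34.8, 43.6 and 37.5 CPM in the wild-type and 49.05, 53.7 and 53.3 CPM in the PI3K libraries. Sox10, the defining factor of the lineage, had 10.6, 14.6 and 13.3 CPM in the wild-type and 15.9, 14.8 and 30.6 CPM in the PI3K libraries. The groups did not overlap in either, although PI3K library 2 exceeded wild-type library 2 by little in Sox10. The log2 fold changes were 0.43 ± 0.11 (unadjusted p = 0.00508) and 0.68 ± 0.29. The summed level was 243, 315 and 253.5 CPM in the wild-type and 286, 269.5 and 333 CPM in the PI3K group and overlapped.

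Of 11 neuron markers 8 had a higher and 3 a lower mean, with a median of 0.20 that became 1.06 without wild-type library 1. Elavl4, an RNA-binding protein of neurons, had 1.87, 1.38 and 1.09 CPM in the wild-type and 3.68, 2.399 and 4.57 CPM in the PI3K libraries, with a log2 fold change of 1.30 ± 0.34 (unadjusted p = 0.00584). The neuron sums overlapped, at 61.0, 51.2 and 41.4 CPM in the wild-type and 82.1, 38.4 and 59.3 CPM in the PI3K group. Of 9 tooth germ markers 7 had a higher and 2 a lower mean, with a median of 0.23, and Barx1, Lhx6, Dlx1 and Pax9 are shared with the palate factors above. The tooth germ sums were 813, 952.7 and 847.8 CPM in the wild-type and 895, 1181 and 1047 CPM in the PI3K group. The parts of muscle and tooth germ, whose marker sums had higher means in the PI3K group, in the differences of the palate transcription factors were not tested.

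**Figure D5:**
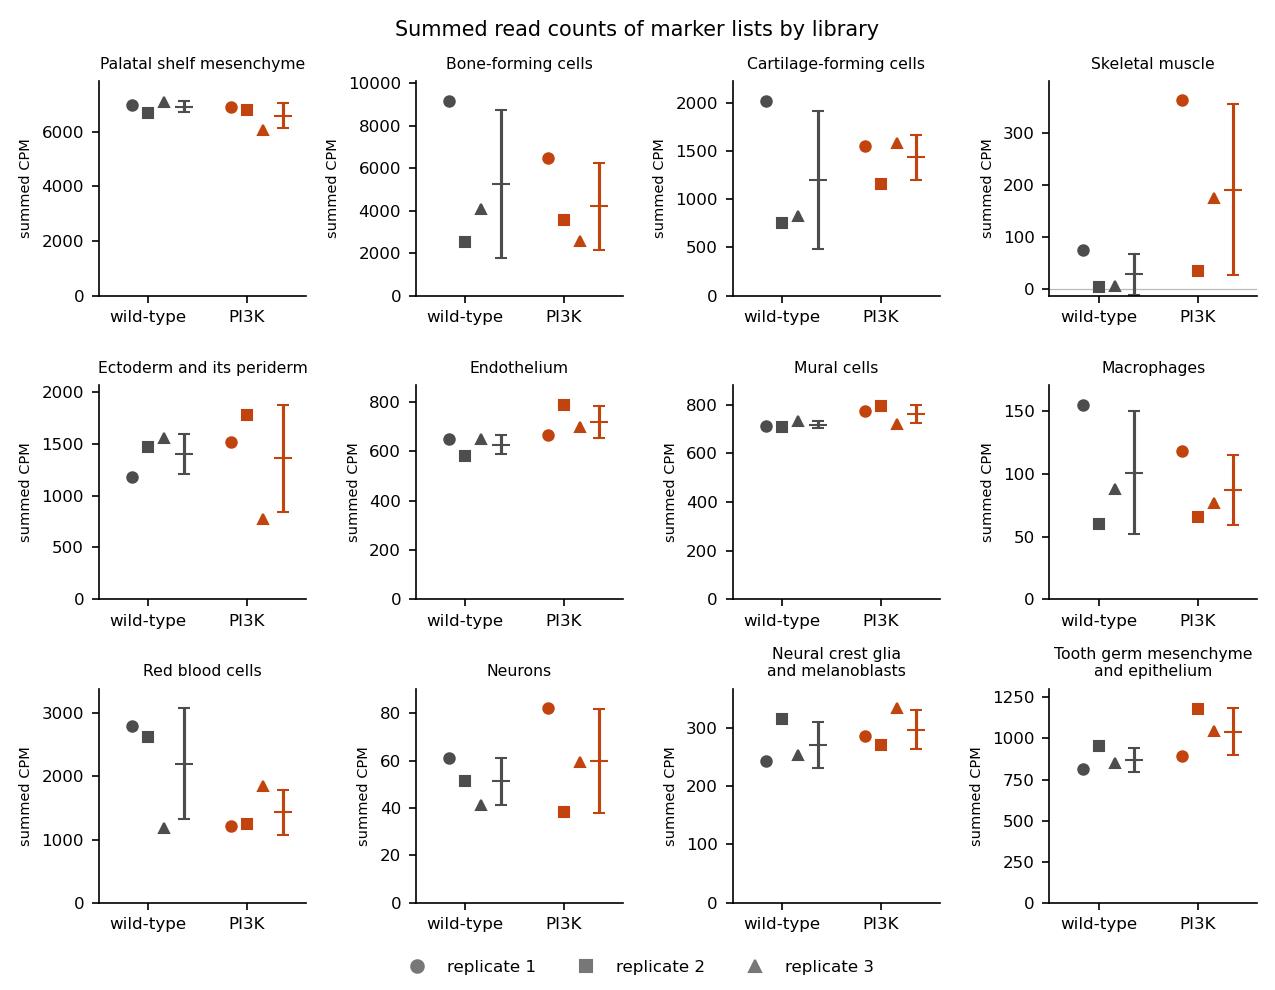
Summed CPM of the 12 marker lists in each of the 6 libraries, with the mean and SD of each group of 3, on linear axes that differ between panels. Palatal mesenchyme stays within 6075 to 7104 CPM, while skeletal muscle runs from 5.43 to 363 CPM and bone from 2527 to 9163 CPM.

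The largest axis of variation among the 6 libraries did not follow the genotype. The first principal component of log2 CPM took 40.3% of the variance, with wild-type library 1 (-41.5) and PI3K library 1 (-45.0) at one end and wild-type library 2 (41.2) and PI3K library 2 (27.5) at the other. Genes of bone and cartilage such as Ibsp, Panx3, Smpd3 and Matn1 lay at the end of the 2 libraries numbered 1. The second component, 22.3% of the variance, held all 3 wild-type libraries below 0 (-3.75, -19.2 and -39.4) and all 3 PI3K libraries above 0 (8.49, 19.1 and 34.7). The third, 20.7%, set PI3K library 2 (-45.0) against PI3K library 3 (29.4). PI3K library 2 was farthest from its group's mean in 42.5% of genes, and its median absolute distance from that mean was 0.16 on the log2 scale, beside 0.08 to 0.14 in the other 5 libraries.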

How the data were processed

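Polyadenylated RNA was sequenced from 3 wild-type and 3 PI3K palatal shelf samples. The authors deposited estimated counts per gene and TPM values per gene, which are scaled for transcript length and depth. Per the submitters' processing notes STAR 2.7.0, Salmon 1.1.0, DESeq2 1.28.1 and build mm10 were used; the transcript index, annotation and strand setting are not given in the sources used here. Of 53392 identifiers 53355 matched GENCODE M21 (GRCm38) and 37 did not.

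Estimated counts were rounded and tested with edgeR 4.0.16 (quasi-likelihood F-test, TMM, filterByExpr, genotype as the only term, Benjamini-Hochberg over all genes) in R 4.3.3. Effective length (estimated count divided by TPM, log2, centred per library on the median gene) was tested with limma 3.58.1 for genes that reached 50 counts in each of the 6 libraries; its scale in bases was added after seeing the data. Alternatives were other normalisations and filters, DESeq2 1.42.0, limma on log2 TPM, Y-linked transcripts as a covariate, all 12 libraries in 1 fit, a replicate block and leaving out each library. Scripts were tested on simulated data.

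The members and 30 lists (501 genes, 485 tested) were chosen with earlier results of these data known, and some members are not reported here by name. Genes were named by the smallest p and highest TPM in each list and by the 10 smallest p in each direction over all genes; others, among them Bnip3, Car9, Egr1, Mki67, Psph, Hic1, Hand2, Axin2 and Myod1, were chosen after their values were seen. P-values set the difference between the groups against the spread between these samples, which edgeR and limma estimate with information shared across genes. Replicate pairs differed by more than sampling noise (chi-square per degree of freedom of 27.1 to 65.1), and each library was counted as 1 sample.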

Additional observations from a re-analysis of the deposited data

How the results depend on the processing

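No gene's level passed an adjusted p of 0.05 in edgeR or limma under any setting tried, including each fit without 1 library (0 to 0), and DESeq2 called 4. The genes at an unadjusted p under 0.05 numbered 354, 696 without a filter on low counts, and 157 to 954 over the fits without 1 library (157 without wild-type library 3, 626 with wild-type library 1 left out and 954 with PI3K library 1 left out). Same-numbered libraries did not deviate together from their group means in all 3 pairs (correlations 0.53, 0.22 and -0.22), so that the numbers were not taken to pair the samples. With the replicate number as a block 581 genes had an unadjusted p under 0.05 and 0 an adjusted p under 0.05, and for effective length 0 genes were called (Pdgfra -0.579, adjusted p 0.411). The sign of single genes changed for Srsf3 with limma on log2(TPM + 1) (0.00) and log2(TPM + 0.1) (0.00).

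Over the fits without 1 library the log2 fold change ranged as follows: -0.07 to 0.10 for Pdgfra, -0.09 to 0.00 for Srsf3, -0.08 to 2.04 for Slc2a1, -0.11 to 1.32 for Vegfa, -0.10 to 0.31 for Pkm, -0.15 to 2.47 for Ier3 and -0.08 to 1.93 for Ccn1. The median of the ATF4 genes was -0.19 with more than 1 CPM required in at least 3 libraries. List medians that moved by more than the spread of the replicates ranged without 1 library from 0.00 to 0.10 for PDGF ligands and receptors, from -0.01 to 0.14 for PI3K, AKT and mTOR components, from -0.24 to 0.06 for ERK feedback and ETS targets, from -0.05 to 0.10 for SR protein genes and their kinases, from -0.03 to 0.21 for palate transcription factors, from -0.09 to 0.09 for palatal shelf mesenchyme, from -0.39 to 1.20 for cartilage-forming cells, from 1.72 to 5.53 for skeletal muscle, from 0.06 to 1.06 for neurons and from 0.25 to 0.45 for neural crest glia and melanoblasts. Of the other gene values with all libraries 779 kept their direction and side of the threshold and 4 passed it, those called by DESeq2. Depth limits genes below 1 CPM most. The causes of these changes were not tested.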

Other observations

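A few gene models were present in some libraries and absent from others. A count of at least 100 in 1 library and below 1 in another was found for 35 models, of which 4 lie on the Y chromosome, 15 have symbols that start with Gm and 27 are protein-coding in the annotation. In 4 of the 35 all libraries of 1 group were at 0. Gm6361 had 187, 195 and 162 estimated counts in the wild-type and 204, 0 and 0 in the PI3K libraries. Gm6565 had 0 in all wild-type libraries and 0, 182 and 193 in the PI3K libraries. The models chosen as examples were picked after their values had been seen.

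The genes around Pdgfra on chromosome 5 were counted because the knock-in came through a targeted locus. Of 81 genes tested within 10 megabases on either side 50 had a higher and 31 a lower mean in the PI3K group, beside 48.0% higher over all genes, with a median log2 fold change of 0.04. At an unadjusted p under 0.05 there were 3 higher (Shisa3, Cep135 and 1700025A08Rik) and 0 lower, beside 1.53% higher over all genes, and none passed the adjusted threshold in edgeR.

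Without wild-type library 1 the smallest adjusted p of any gene belonged to Msx2, a BMP-responsive homeobox factor of cranial bone and tooth, at 0.0535 (edgeR quasi-likelihood test, Benjamini-Hochberg). Msx2 had 15.1, 2.98 and 2.703 CPM in the wild-type and 20.8, 16.7 and 20.9 CPM in the PI3K libraries, so that wild-type library 1 was near the PI3K range and the other wild-type libraries far below it. With all libraries it had a log2 fold change of 1.49, at an adjusted p of 0.9997 or more. Ebf2, a factor of mesenchymal progenitors, had 26.8, 6.33 and 6.35 CPM in the wild-type and 27.2, 20.6 and 34.1 CPM in the PI3K libraries. Here wild-type library 1 lay inside the PI3K range, so that the groups overlapped, and the other wild-type libraries again lay far below it.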
